A study of Mus musculus with 15 samples.

Results

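Epithelial cells of the lung were compared with epithelial cells of the colon, gene by gene, in 6 of the 15 libraries of a series on epithelia of the mouse thymus and of other organs. The 3 lung and the 3 colon libraries were taken by the tissue named in their labels. Both groups came from male C57BL/6J mice of 8 weeks, with no treatment and no allele beyond the strain in the labels. Primary epithelial cells were sorted on a flow cytometer, and each library held the cells of 5 pooled mice. PolyA RNA of all 6 libraries was prepared with the same kit, KAPA RNA HyperPrep PolyA, whereas the thymus and skin libraries were made with another kit and enter only 1 alternative fit. The labels do not name the surface markers of the sort, so the epithelial cell types in each pool are known only through their RNA. A group is 3 pools, and each SD is the spread among these pools.

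Both epithelia line a surface that meets the outside world, with different work to do. In the alveoli of the lung, very flat type I cells share a basement membrane with capillaries and let gas pass, type II cells secrete surfactant, and club and ciliated cells line the airways. In the colon, absorptive colonocytes take up salt, water and the short-chain fatty acids that bacteria release, goblet cells secrete mucus, and stem cells at the crypt base renew the sheet every few days. The comparison below therefore covers pathways beyond these cell type markers, namely metabolism, glycosylation, extracellular matrix, signalling, innate defence, and secretion and transport.

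The labels were first checked against 4 marker genes. Sftpc, which encodes surfactant protein C of type II cells, stood at 9772, 4662 and 3808 CPM in lung and 0.432, 0.667 and 0.629 CPM in colon, where the values of libraries 1, 2 and 3 are given in that order here and below. Cldn18, a claudin of the alveolar tight junction, stood at 3606, 3814 and 3968 CPM in lung and 0.432, 0.203 and 0.236 CPM in colon. Muc2, the gel-forming mucin of goblet cells, stood at 0.46, 0.202 and 0.383 CPM in lung and 5803, 6881 and 6655 CPM in colon, and Vil1, which encodes villin of the brush border, at 0.216, 0.151 and 0.301 CPM in lung and 713, 623 and 629 CPM in colon. Each marker was therefore high in the 3 libraries of its own tissue and near 0 in the others. CPM are gene reads relative to the total of the library after TMM scaling. The libraries held 24223316 to 41978665 gene reads, with more reads in each lung library than in any colon library. Of all counted reads, 24.2% to 36.1% were not assigned to a gene, for any reason. Within a tissue the log2 levels of all genes tested correlated at 0.985 to 0.990, and between the tissues at 0.638 to 0.656, across genes.

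Of 17010 genes tested, 6654 (39.1%) were higher in lung and 6405 (37.7%) higher in colon at an adjusted p under 0.05 in the quasi-likelihood test of edgeR. Together these were 13059 genes (76.8%), so a call alone says little about any gene here, and the fold changes carry more of the description. A test against a minimum of 2-fold called 3991 genes (23.5%) higher in lung and 3407 (20.0%) higher in colon, 7398 (43.5%) in all. The median log2 fold change over all genes tested was 0.02, and positive values mean higher in lung throughout. The libraries of the 2 tissues did not overlap in 13780 of the genes tested (81.0%), so lack of overlap is common here. A fold change is given with its standard error. Leaving out 1 library moved the fold of 37 of the 283 genes named and called here by over 1.5 times, 29 of them with under 100 reads in the lower tissue, and changed no direction, and the other 8 are given with their genes. Fewer cells of a type and less RNA per cell cannot be told apart in sorted bulk RNA, and neither can tissue and any difference between the isolation of lung and colon cells.

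**Figure D1:**
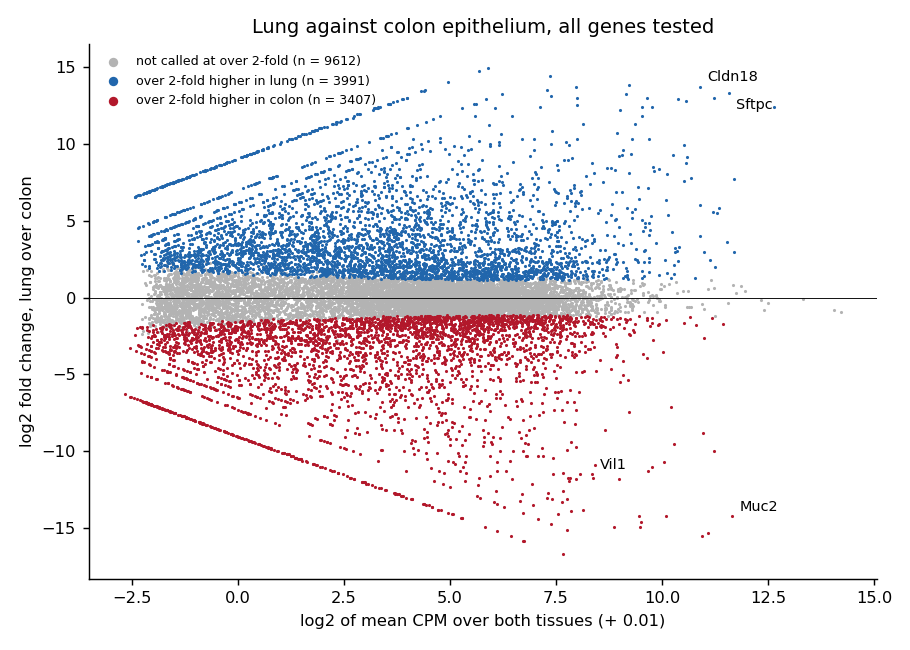
Log2 fold change of lung over colon (vertical axis) against the log2 of the mean CPM over both tissues (horizontal axis, 0.01 added) for 17010 genes, where each point is a gene. The 3991 genes over 2-fold higher in lung are blue, the 3407 over 2-fold higher in colon are red, and the 4 marker genes of the labels lie at the outer edges. The straight lines of points at the edges are genes with 0 or few reads in 1 tissue.

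Outside the epithelial marker lists, the largest differences were taken among genes with at least 10 reads on the lower side. Dmbt1, a scavenger glycoprotein of mucosal secretions, stood at 6005, 2993 and 4145 CPM in colon and 0.243, 0 and 0.0821 CPM in lung (-15.28 ± 0.59). Lypd8, which keeps flagellated bacteria away from the colonic surface, stood at 2550.2, 1600.2 and 2387 CPM in colon and 0.108, 0.126 and 0.109 CPM in lung (-14.17 ± 0.33). The other 8 of the 10 largest colon differences were Mgam, a brush-border maltase (448 against 0.116 CPM), Klk1, tissue kallikrein (1015 against 0.271 CPM), Gsdmc4, a gasdermin (662 against 0.191 CPM), Tgm3, a transglutaminase (456 against 0.131 CPM), Myo1a, the brush-border myosin (439.5 against 0.133 CPM), Cdhr5, a microvillus protocadherin (342 against 0.113 CPM), Guca2a, which encodes guanylin (404 against 0.139 CPM), and Agr2, a disulfide isomerase of goblet cells (1641 against 0.644 CPM), each as mean colon against mean lung level. Their log2 fold changes ran from -11.88 to -11.32.

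The largest lung difference under the same rule was Aqp5, a water channel of type I cells, at 1502, 1565 and 1769.7 CPM in lung and 0.118, 0.232 and 0.197 CPM in colon (13.05 ± 0.22). Next came Sec14l3, a lipid-binding protein, at 4768 against 0.60 CPM as mean lung against mean colon level. Col4a3 and Col4a4, which encode chains of basement membrane collagen, are described with the matrix genes. Cyp2b10, a cytochrome P450 of the lung, stood at 1737 against 0.323 CPM, Igfbp2, an insulin-like growth factor binding protein that marks type I cells, at 1035 against 0.232 CPM, and Akap5, an anchor for protein kinase A, at 1477 against 0.414 CPM. Phactr1, a regulator of actin and phosphatase 1, stood at 567 against 0.235 CPM, Sema3e, a secreted semaphorin, at 980.4 against 0.563 CPM, and Inmt, a methyltransferase, at 338 against 0.186 CPM. Inmt also stands in the list of fibroblast markers used below. In each of these genes every lung library lay above every colon library, as the rule for these genes required.

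A total of 56 pathway lists was then read against the shares over all genes tested. These were 39.1% higher in lung and 37.7% higher in colon (23.5% and 20.0% by over 2-fold). A count near these shares, here or below, does not set a list apart from other genes. Matrix lists leaned most towards lung, with 130 of 180 tested members higher in lung and 30 higher in colon (118 and 18 by over 2-fold, median log2 fold change 2.37). Signalling lists leaned the same way, with 191 and 111 of 343 (147 and 76 by over 2-fold, median 0.78). Metabolic lists leaned towards colon, with 137 and 278 of 479 (97 and 184 by over 2-fold, median -0.73). Glycosylation gave 64 and 91 of 177 (36.2% and 51.4%), and secretion and transport 28 and 57 of 103 (27.2% and 55.3%). Innate defence gave 93 and 94 of 219 (42.5% and 42.9%), near the shares over all genes. The lists of glycosylation and of innate defence leaned in either direction, and those of secretion and transport all leaned to colon.

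**Figure D2:**
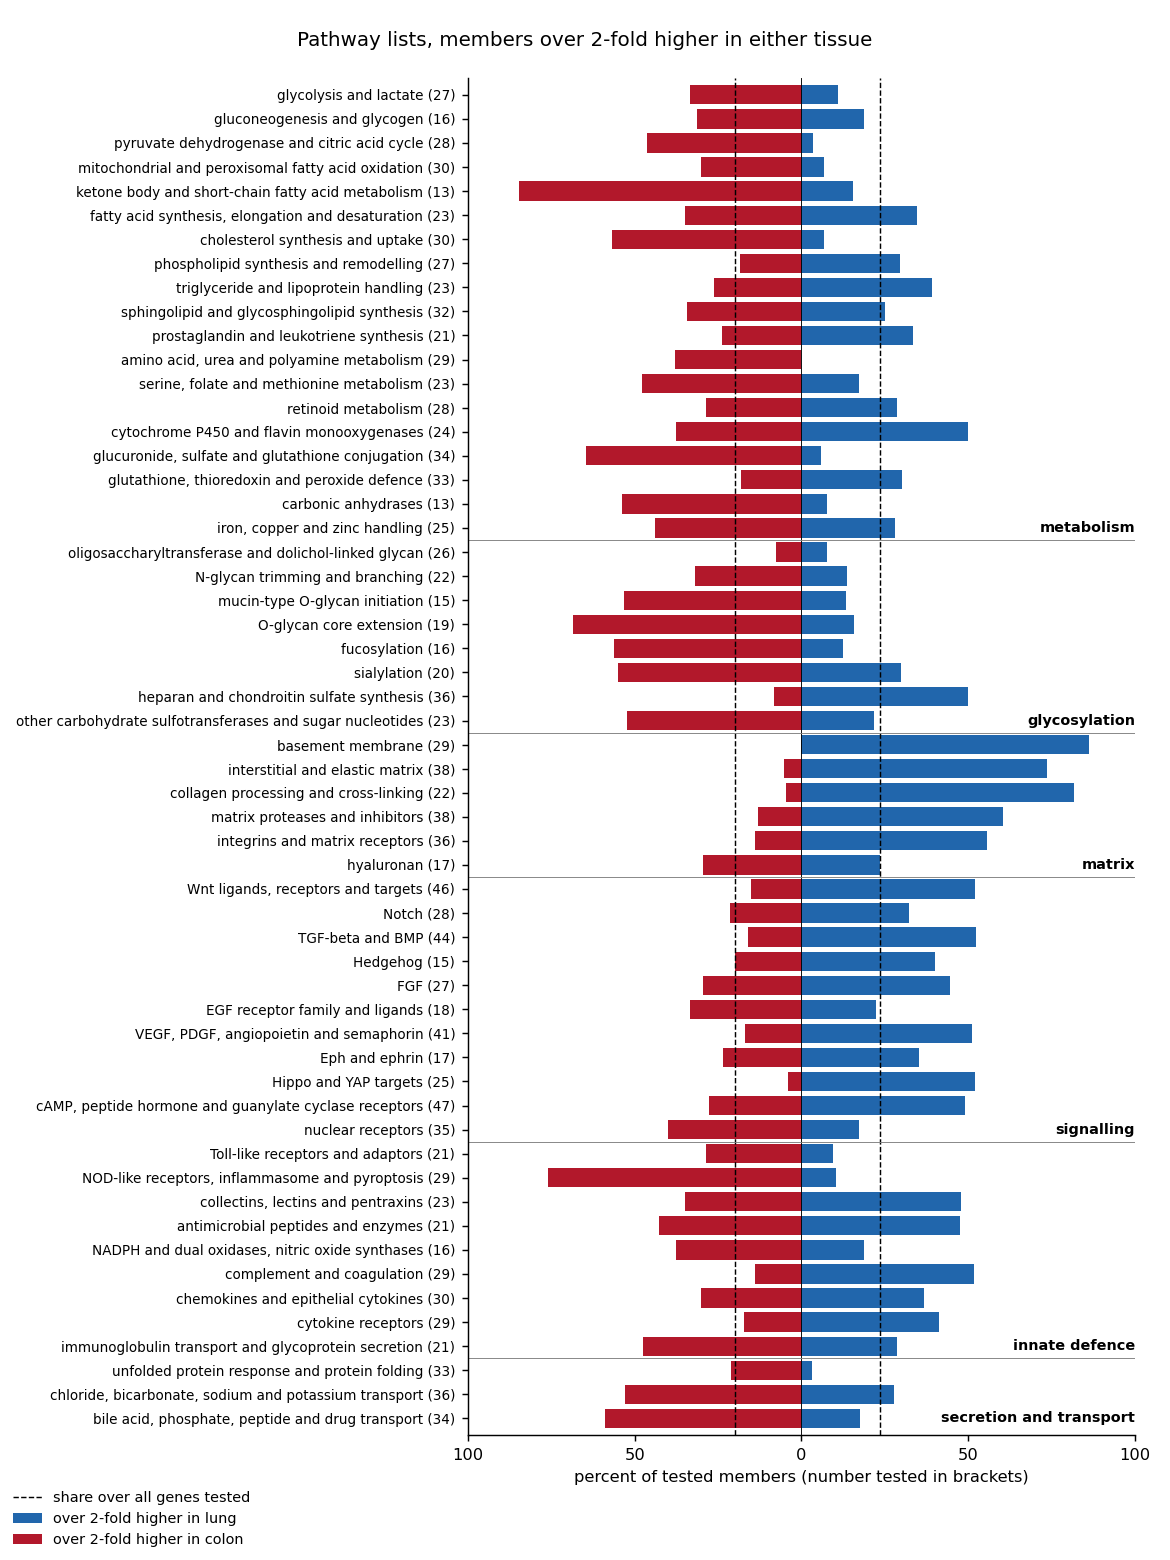
Share of the tested members of each of 56 pathway lists that were over 2-fold higher in lung (blue bars, to the right) or over 2-fold higher in colon (red bars, to the left), in percent, with the number tested in brackets. Dashed lines mark the shares over all 17010 genes, 23.5% and 20.0%. Basement membrane reaches 25 of 29 on the lung side, and ketone body and short-chain fatty acid metabolism 11 of 13 on the colon side.

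Genes of mitochondrial energy metabolism were higher in colon. For pyruvate dehydrogenase and the citric acid cycle, 3 of 28 tested members were higher in lung and 23 higher in colon (1 and 13 by over 2-fold, median log2 fold change -1.14). Cs, which encodes citrate synthase at the entry of the cycle, stood at 637, 481 and 526 CPM in colon and 174, 168 and 175 CPM in lung (-1.67 ± 0.12, adjusted p = 3.1e-06). Suclg2, a subunit of succinyl-CoA ligase, showed the largest difference of the enzymes of the cycle, at 19.9 ± 2.71 CPM in lung and 191 ± 11.7 in colon (-3.26 ± 0.12). The differences of the cycle enzymes were thus mostly of 2 to 4 times, small beside those of the marker genes. The 3 members higher in lung were all kinases that switch pyruvate dehydrogenase off, namely Pdk4 (176 against 56.9 CPM, 1.63 ± 0.21), Pdk3 (1.16 ± 0.11) and Pdk2 (0.45 ± 0.14). The call of Pdk2 was lost without colon library 3 (adjusted p = 0.0505) or lung library 2 (adjusted p = 0.0581). Pdk1, the remaining kinase of this family in the list, was higher in colon (-1.44 ± 0.12). Ogdh, a subunit of oxoglutarate dehydrogenase and the member with the highest level among those that did not pass, stood at 448 against 438 CPM (0.03 ± 0.10).

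Fatty acid oxidation leaned the same way: 4 of 30 tested members were higher in lung and 22 higher in colon (2 and 9 by over 2-fold, median log2 fold change -0.84). Cpt1a, which admits long-chain fatty acids to mitochondria, stood at 496, 375 and 406 CPM in colon and 103, 87.6 and 69.9 CPM in lung (-2.29 ± 0.17). Hadh and Acads, which act on shorter chains, were higher in colon by -2.58 ± 0.15 and -2.93 ± 0.14, whereas Acadl and Acadvl, which act on long chains, differed less (-0.41 ± 0.09 and -0.64 ± 0.10). Of the 4 members higher in lung, Acox2, Acox3 and Hsd17b4 act in peroxisomes, with Acox2, an oxidase of branched chains and bile acid precursors, the farthest (20.9 against 1.84 CPM, 3.52 ± 0.30).

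The list of ketone body and short-chain fatty acid genes had the lowest median fold change and the highest share over 2-fold higher in colon of the metabolic lists: 2 of 13 tested members were higher in lung and 11 higher in colon (2 and 11 by over 2-fold, median log2 fold change -3.22). Slc5a8, which carries butyrate into colonocytes with sodium, stood at 493, 372 and 433 CPM in colon and 0.92, 0.202 and 0.246 CPM in lung (-9.89 ± 0.40). Acsm3, which activates medium-chain and short-chain acids, stood at 344 against 0.245 CPM as colon against lung level (-10.42 ± 0.22). Hcar2, a receptor for hydroxybutyrate and niacin, was higher in lung at 22.4 against 3.76 CPM (2.56 ± 0.48, and 1.92 without lung library 1).

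Sugar metabolism differed in single enzymes more than as a whole. For glycolysis and lactate, 5 of 27 tested members were higher in lung and 15 higher in colon (3 and 9 by over 2-fold, median log2 fold change -0.58). Hk2, an inducible hexokinase, stood at 586, 482 and 492 CPM in colon and 53.9, 64.2 and 57.9 CPM in lung (-3.15 ± 0.12). Pklr, the liver type of pyruvate kinase, was higher in colon as well (-8.64 ± 0.36), while Pkm, the common type, stood at 408 against 402 CPM in lung against colon (0.02 ± 0.13). Ldhb, the lactate dehydrogenase subunit of oxidative tissues, was higher in lung at 110.1, 93.3 and 98.2 CPM in lung and 5.73, 4.79 and 5.03 CPM in colon (4.28 ± 0.12), and Ldha, the other common subunit, was higher in colon (-1.18 ± 0.14). Slc16a3, a lactate exporter, was higher in lung (13.1 against 0.924 CPM, 3.81 ± 0.36), and Slc16a1, a carrier of lactate and butyrate, in colon (334 against 35.8 CPM, -3.22 ± 0.21). Pck1, which starts gluconeogenesis, gave no read in the 3 lung libraries and 215, 186 and 229.7 CPM in colon, at least 7836-fold higher in colon. Fbp2, a fructose bisphosphatase, stood at 126 against 0.168 CPM in colon against lung (-9.52 ± 0.22), whereas Pygl, a glycogen phosphorylase, was higher in lung (42.9 against 5.63 CPM, 2.93 ± 0.15).

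The read counts of several housekeeping enzymes with many processed pseudogenes are low because only reads at a single place were counted. Gapdh had 307 such reads in lung library 1 and 6984 in the expected counts of the authors' RSEM tables, which divide reads among places. Its log2 fold change was -0.21 ± 0.18 with read counts and -1.0 with expected counts (adjusted p = 4.6e-05). Pgk1, Pgam1, Eno1, Fdps and Idi1 lost reads in the same way, so their levels are not interpretable from the counts.

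Lipid synthesis split by branch. In cholesterol synthesis and uptake, 2 of 30 tested members were higher in lung and 26 higher in colon (2 and 17 by over 2-fold, median log2 fold change -1.54). Dhcr7, a late enzyme of cholesterol synthesis, stood at 109, 81.8 and 103 CPM in colon and 8.03, 6.83 and 5.99 CPM in lung (-3.82 ± 0.16). The only 2 members higher in lung were exporters, Abca1 at 295, 359.8 and 274 CPM in lung and 13.4, 9.31 and 19.2 CPM in colon (4.48 ± 0.26) and Abcg1 (11.7 against 3.04 CPM, 1.95 ± 0.21).

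Genes of fatty acid synthesis, elongation and desaturation split evenly, since 11 of 23 tested members were higher in lung and 10 higher in colon (8 and 8 by over 2-fold, median log2 fold change -0.09). Scd1 and Scd2, stearoyl-CoA desaturases, stood at 616 ± 257 CPM in lung and 36.5 ± 4.04 in colon and at 3919.9 ± 325 CPM in lung and 985 ± 169 in colon (4.08 ± 0.30 and 1.99 ± 0.17). Fads3, a desaturase of sphingoid bases, stood at 643, 738 and 746 CPM in lung and 17.97, 15.99 and 13.8 CPM in colon (5.48 ± 0.14), whereas Fads2, the first desaturase of polyunsaturated chains, was higher in colon (203 against 14.2 CPM, -3.84 ± 0.24). Elovl1 and Elovl5, elongases, were higher in lung (1.5 ± 0.12 and 2.08 ± 0.10), and Elovl6 and Elovl7, further elongases, in colon (-4.07 ± 0.29 and -2.81 ± 0.12). Fasn, fatty acid synthase, did not pass (231 against 268 CPM, -0.22 ± 0.22), but was called higher in colon without lung library 1 (-0.54, adjusted p = 0.00845).

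Of the phospholipid genes, 11 of 27 tested members were higher in lung and 14 higher in colon (8 and 5 by over 2-fold, median log2 fold change -0.70). Members higher in lung included Lpcat1, which remodels phosphatidylcholine (189.8 against 14.03 CPM, 3.76 ± 0.21), Pcyt1a, which makes CDP-choline (1.83 ± 0.09), Lpin2, a phosphatidate phosphatase (526 against 51.3 CPM, 3.36 ± 0.13), and Prdx6, a peroxiredoxin with phospholipase activity (3769 against 703 CPM, 2.42 ± 0.25). Abca3, the lipid pump of lamellar bodies, stood at 415, 337 and 321 CPM in lung and 114, 95.6 and 111 CPM in colon (1.75 ± 0.13), so it was present in colon too. Pla2g10, a secreted phospholipase, gave 1 read in lung and 57.2 CPM in colon, a ratio of 6435 times (95% exact counting interval 1154 to 254214). Among sphingolipid genes, 15 of 32 tested members were higher in lung and 13 higher in colon (8 and 11 by over 2-fold, median log2 fold change 0.07). Cers2, which makes ceramides of very long chains (665 against 78.9 CPM, 3.08 ± 0.11), and the lysosomal hydrolases Asah1 and Smpd1 (2.33 ± 0.10 and 3.18 ± 0.10) were higher in lung. Ugcg, which makes glucosylceramide (339.5 against 30.3 CPM, -3.48 ± 0.12), Degs2, the hydroxylase of phytoceramide (121 against 0.983 CPM, -6.93 ± 0.26), and Smpd3, a neutral sphingomyelinase (-4.93 ± 0.21), were higher in colon.

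Detoxifying enzymes held members higher in either tissue, and those named here were picked by direction. For oxidation by cytochromes P450 and flavin monooxygenases, 12 of 24 tested members were higher in lung and 9 higher in colon (12 and 9 by over 2-fold, median log2 fold change 0.87). Members higher in lung included Cyp2b10 at 1486, 1895 and 1829 CPM in lung and 0.314, 0.261 and 0.393 CPM in colon. Cyp4b1 stood at 1199.7 against 4.5 CPM and Fmo2 at 192 against 4.79 CPM in lung against colon. Cyp2f2, the club cell enzyme, varied between pools at 1941, 445 and 1035 CPM in lung. It stood at 26.5, 15.1 and 18.9 CPM in colon (5.83 ± 0.56, and 5.2 without lung library 1). Members higher in colon included Cyp2c55 at 673, 184 and 527 CPM in colon and 0.0811, 0 and 0 CPM in lung. Its ratio was 16315 times (95% exact counting interval 5582 to 79118). Cyp2c65 and Cyp2c68, also higher in colon, gave no read in lung. Conjugation leaned to colon, where 4 of 34 tested members were higher in lung and 28 higher in colon (2 and 22 by over 2-fold, median log2 fold change -2.26). Ugt2b34, a glucuronosyltransferase, stood at 480.1 against 4.34 CPM (-6.8 ± 0.64). Sult1b1, a sulfotransferase, stood at 83.4 against 0.0637 CPM (-10.31 ± 0.50). Ugdh, which makes UDP-glucuronate, stood at 282 against 53.3 CPM (-2.4 ± 0.21). Without colon library 2, 2 instead of 4 members of this list were called higher in lung. The Cyp2c, Ugt1a, Ugt2b and Gstm genes have close copies whose reads the counting may divide wrongly, so single members are uncertain. Among genes of peroxide defence, 13 of 33 tested members were higher in lung and 14 higher in colon (10 and 6 by over 2-fold, median log2 fold change -0.00), with Gpx3 (229 against 6.84 CPM), Sod3 (113 against 2.46 CPM) and Sod1 (474 against 185 CPM) higher in lung and Gpx2, the gut glutathione peroxidase (338 against 29.2 CPM, -3.54 ± 0.24), in colon. Gpx3 also stands in the list of fibroblast markers.

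Further metabolic lists are given by their counts and leading members. Carbonic anhydrases, which interconvert carbon dioxide and bicarbonate, leaned to colon (13 tested, 3 higher in lung and 7 in colon), with Car1 at 2318, 470.4 and 1465 CPM in colon and 0.0541, 0.0504 and 0.0274 CPM in lung (-14.85 ± 0.93). Car2 stood at 902 against 61.8 CPM (-3.87 ± 0.14), and Car1 varied 5-fold among the colon pools. Iron and zinc genes split (25 tested, 10 higher in lung and 14 in colon): Slc39a8, a zinc and manganese importer, stood at 1415, 1497 and 1539.5 CPM in lung and 59.9, 66.7 and 55.3 CPM in colon (4.61 ± 0.13), and Heph and Slc40a1, which pass iron to the blood, at 120.4 against 5.87 CPM and 80.02 against 1.54 CPM in colon against lung. Retinoid genes split too (28 tested, 9 higher in lung and 12 in colon), with Aldh1a1, a retinal dehydrogenase, higher in lung (536 against 42.8 CPM, 3.65 ± 0.26) and Adh1, an alcohol dehydrogenase, in colon (857 against 34.7 CPM, -4.63 ± 0.23). Serine, folate and methionine genes leaned to colon (23 tested, 7 higher in lung and 15 in colon), led by Cbs of the transsulfuration route (87.98 against 1.42 CPM, -5.95 ± 0.17), but Mthfd1, a folate enzyme, was higher in lung (459.8 against 91.7 CPM, 2.33 ± 0.10). Among amino acid and polyamine genes (29 tested, 4 higher in lung and 18 in colon), Glul, glutamine synthetase, was higher in colon (877 against 223 CPM, -1.98 ± 0.19), and no member was over 2-fold higher in lung. Prostaglandin genes (21 tested, 7 higher in lung and 9 in colon) included Ptgs1 and Ptgs2, the cyclooxygenases, higher in lung (4.25 ± 0.20 and 3.74 ± 0.26), and Hpgd, which inactivates prostaglandins, higher in colon (102 against 17.8 CPM, -2.53 ± 0.16). Lipoprotein genes (23 tested, 11 higher in lung and 8 in colon) included Cd36, a fatty acid receptor (129 against 1.5 CPM, 6.48 ± 0.47, and 7.4 without colon library 3), and Apoe (165 against 10.2 CPM) in lung, and Fabp2, the intestinal fatty acid binding protein (124 against 0.0975 CPM), in colon. Gluconeogenesis and glycogen genes, of which Pck1, Fbp2 and Pygl are given above, counted 16 tested, 4 higher in lung and 10 in colon.

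**Figure D3:**
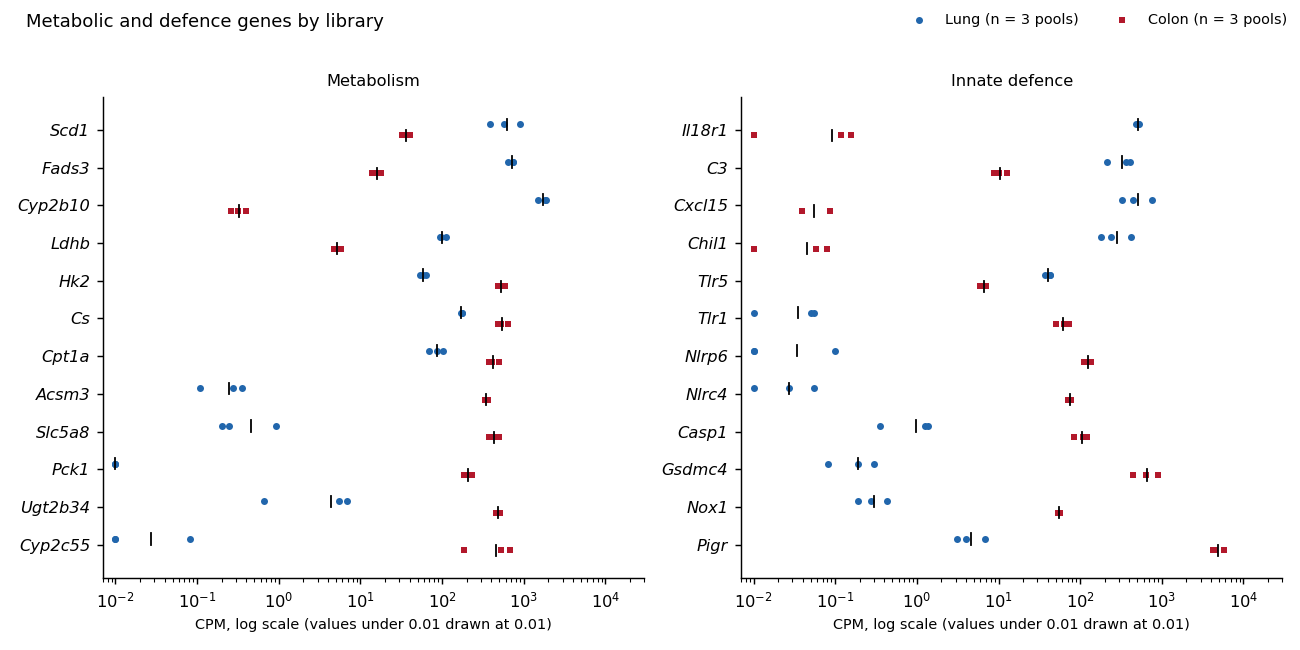
CPM on a log axis of 12 metabolic genes (left) and 12 genes of innate defence (right) in the 3 lung pools (blue circles) and the 3 colon pools (red squares), with a black line at each mean and values under 0.01 drawn at 0.01. The groups do not overlap in any of the 24 genes, which also held for 81.0% of all genes tested. The distance between the groups is smallest for Cs.

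Glycosylation separated the epithelia by the kind of glycan. Genes that build heparan and chondroitin sulfate, the sulfated chains of proteoglycans, were mostly higher in lung: 27 of 36 tested members were higher in lung and 4 higher in colon (18 and 3 by over 2-fold, median log2 fold change 1.19). Ndst1, which starts the sulfation of heparan chains, stood at 2112, 2450.1 and 2005 CPM in lung and 58.4, 50.1 and 53.9 CPM in colon (5.34 ± 0.15, adjusted p = 1.8e-08). Hs2st1, which sulfates their uronic acid, stood at 1152, 1284 and 1235 CPM in lung and 30.8, 37.7 and 31.1 CPM in colon (5.2 ± 0.14). Csgalnact2, which starts chondroitin chains, stood at 275 against 12.2 CPM (4.5 ± 0.12). Chst12, which sulfates them, stood at 146 against 0.627 CPM (7.91 ± 0.36). Ext1 and Ext2, the polymerase of heparan sulfate, differed less (1.52 ± 0.09 and 1.17 ± 0.10), as did Xylt2, which links the chain to its core protein (0.42 ± 0.13). The call of Xylt2 was lost without lung library 3 (adjusted p = 0.0513). The 4 members higher in colon were Hs3st1 (88.3 against 3.2 CPM, -4.79 ± 0.28) and Chst15 (-1.77 ± 0.18), both sulfotransferases, Sulf2, which removes sulfate from heparan (-1.71 ± 0.22), and Xylt1, the other xylosyltransferase (-1.25 ± 0.20).

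Mucin-type O-glycans leaned the other way. Their initiating transferases add the first N-acetylgalactosamine to serine or threonine, and 4 of 15 tested members were higher in lung and 9 higher in colon (2 and 8 by over 2-fold, median log2 fold change -2.57). Galnt7 stood at 332, 395 and 360.3 CPM in colon and 5.22, 2.95 and 3.8 CPM in lung (-6.51 ± 0.21). Galnt4 stood at 212 against 20.4 CPM (-3.37 ± 0.08). Galnt6 stood at 206 against 5.01 CPM (-5.36 ± 0.12). Galnt18 was 1 of the 4 members higher in lung, at 400.2, 453 and 469 CPM in lung and 0.785, 0.929 and 1.02 CPM in colon (8.91 ± 0.15). Galnt1, the broadly expressed member, differed little (73.5 against 88.9 CPM, -0.28 ± 0.07). For the extension of O-glycan cores, 3 of 19 tested members were higher in lung and 13 higher in colon (3 and 13 by over 2-fold, median log2 fold change -3.68). B3gnt7, which adds N-acetylglucosamine to growing chains, stood at 500.0 against 3.07 CPM (-7.34 ± 0.25). B3galt5, which adds galactose, stood at 402, 409 and 391 CPM in colon and 0, 0.0504 and 0.0547 CPM in lung (-13.32 ± 0.24). Gcnt3, the core branching enzyme of mucus-secreting epithelia, gave 1 read over the 3 lung libraries and 131 CPM in colon, a ratio of 14824 times (95% exact counting interval 2660.1 to 585574). Gcnt2, which branches poly-N-acetyllactosamine chains, was 1 of the 3 members higher in lung. It stood at 381, 468 and 441 CPM in lung and 5.06, 3.05 and 6.33 CPM in colon (6.5 ± 0.26). C1galt1, which makes the common core, was present in both (299 against 121 CPM in colon against lung, -1.3 ± 0.12), and its chaperone C1galt1c1 stood at 55.9 against 54.9 CPM in lung against colon (0.03 ± 0.09).

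Genes for the sugars that cap these chains also leaned to colon. Of the sialylation genes, 7 of 20 tested members were higher in lung and 13 higher in colon (6 and 11 by over 2-fold, median log2 fold change -1.86). Gne and Nans, which make sialic acid, stood at 503, 568 and 534 CPM in colon and 50.4, 45.6 and 42.3 CPM in lung and at 531, 548 and 515 CPM in colon and 19.2, 17.99 and 19.2 CPM in lung (-3.54 ± 0.11 and -4.82 ± 0.10), and Cmas, which activates it, was higher in colon as well (-3.7 ± 0.13). St6galnac6, a sialyltransferase, stood at 556 against 20.3 CPM (-4.77 ± 0.12), while St8sia2, which makes polysialic acid, stood at 17.1 CPM in lung with 3 reads over the colon libraries, a ratio of 488 times (95% exact counting interval 167 to 2367). Of the fucosylation genes, 3 of 16 tested members were higher in lung and 11 higher in colon (2 and 9 by over 2-fold, median log2 fold change -2.19), led by Slc35c1, the carrier of GDP-fucose (254 against 14.9 CPM, -4.08 ± 0.13), Gmds, which makes it (240.3 against 9.61 CPM, -4.64 ± 0.12), and Fut2, the secretor fucosyltransferase (111 against 0.201 CPM, -9.07 ± 0.30). Gfpt1, the first enzyme of the hexosamine route that feeds all of these chains, stood at 1522, 1451 and 1522 CPM in colon and 102, 98.7 and 91.1 CPM in lung (-3.94 ± 0.12). Gfpt2, its second form, was higher in lung (23.05 against 3.71 CPM, 2.63 ± 0.47). Its list of sulfotransferases and sugar nucleotide genes counted 23 tested, 7 higher in lung and 15 in colon. Of the genes over 2-fold higher in lung in that list 3 instead of 5 were called without colon library 2.

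Among the glycosylation lists, the lists of N-glycan genes had the lowest shares of members over 2-fold apart. For the oligosaccharyltransferase and its lipid-linked donor, 6 of 26 tested members were higher in lung and 15 higher in colon (2 and 2 by over 2-fold, median log2 fold change -0.47), and for Stt3a and Stt3b, the catalytic subunits, the fold changes were -0.54 ± 0.10 and -0.72 ± 0.08. Among trimming and branching genes, 7 of 22 tested members were higher in lung and 11 higher in colon (3 and 7 by over 2-fold, median log2 fold change -0.26). The branching enzymes Mgat4a (393 against 26.6 CPM, -3.88 ± 0.21) and Mgat5 (193 against 34.2 CPM, -2.5 ± 0.15) were higher in colon, and Man1c1, a trimming mannosidase, in lung (94.5 against 3.37 CPM, 4.8 ± 0.19).

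Matrix genes were the most one-sided of the themes. For the basement membrane, 27 of 29 tested members were higher in lung and 1 higher in colon (25 and 0 by over 2-fold, median log2 fold change 3.88). Col4a3 and Col4a4, chains of the collagen IV network of alveoli and kidney glomeruli, lie head to head (chromosome 1, 82586921 to 82722059, and chromosome 1, 82448423 to 82586849, GRCm38). Col4a3 stood at 2565, 2954 and 2480.1 CPM in lung and 0.392, 0.232 and 0.432 CPM in colon (12.91 ± 0.25, adjusted p = 4.1e-09). Col4a4 stood at 1429, 1612 and 1366 CPM in lung and 0.275, 0.116 and 0.432 CPM in colon (12.45 ± 0.29). Col4a5, the chain that completes this network, stood at 940.2 against 3.05 CPM (8.3 ± 0.33). Col4a1 and Col4a2, the common collagen IV chains, stood at 2054, 2383 and 2042 CPM in lung and 25.97, 13.8 and 39.8 CPM in colon and at 2784, 3274 and 2751 CPM in lung and 15.5, 8.91 and 21.5 CPM in colon (6.35 ± 0.39 and 7.59 ± 0.36). For all 5 chains every lung library lay far above every colon library. Lama3, a laminin chain of epithelia, stood at 1621 against 11.9 CPM (7.11 ± 0.48, and 7.81 without colon library 3). Npnt, an integrin ligand, stood at 1259 against 0.997 CPM (10.31 ± 0.17). Hspg2, the heparan sulfate proteoglycan perlecan, stood at 1495 against 51.3 CPM (4.87 ± 0.22). Agrn, which encodes agrin, stood at 1603 against 55.6 CPM (4.85 ± 0.21). Per transcript length, in the TPM of the authors' tables, Col4a1 stood at 556 TPM in lung and 5.89 TPM in colon and Lama3 at 350.1 TPM in lung and 2.33 TPM in colon. Nid2, a nidogen, was the only member higher in colon (10.1 against 3.92 CPM, -1.36 ± 0.23), and Col15a1 did not pass (-0.24 ± 0.36). Without colon library 2 Col15a1 was called higher in colon (-0.59, adjusted p = 0.0467).

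The enzymes that modify and cross-link collagen were higher in lung with their substrate. In that list, 19 of 22 tested members were higher in lung and 1 higher in colon (18 and 1 by over 2-fold, median log2 fold change 3.87). Serpinh1, the collagen chaperone, stood at 429, 562 and 508 CPM in lung and 10.2, 9.95 and 17.2 CPM in colon (5.33 ± 0.24). Plod2, a lysyl hydroxylase, stood at 361 against 3.01 CPM (6.89 ± 0.17). Tgm2, a transglutaminase, stood at 1219 against 26.1 CPM (5.55 ± 0.21). P4ha1, the prolyl hydroxylase subunit, stood at 316 against 18.3 CPM (4.1 ± 0.31). P4hb, its partner that also folds other proteins, stood at 906 against 849.5 CPM (0.09 ± 0.11). Tgm3 was the only member higher in colon (608, 216 and 543 CPM in colon and 0.189, 0.176 and 0.0274 CPM in lung, -11.71 ± 0.62). For interstitial and elastic matrix, 31 of 38 tested members were higher in lung and 3 higher in colon (28 and 2 by over 2-fold, median log2 fold change 2.46). Sparc, a matricellular protein, stood at 5761, 6885 and 7176 CPM in lung and 34.7, 18.9 and 42.5 CPM in colon (7.69 ± 0.36). Fbln5, which organizes elastic fibres, stood at 827 against 2.53 CPM (8.39 ± 0.40). Ltbp3, which binds latent TGF-beta, stood at 585 against 2.52 CPM (7.87 ± 0.24). Col1a1, Col1a2 and Col3a1, the fibrillar collagens of fibroblasts, stood lower, at 171 against 35.1 CPM, 225 against 43.7 CPM and 291 against 114 CPM.

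Markers of fibroblasts, endothelium and mesothelium moved with these lists. The 16 fibroblast and mesenchymal markers summed to 1453 to 2001 CPM in lung and 198 to 450.5 CPM in colon, with 13 of 16 higher in lung and 1 higher in colon. The 15 endothelial markers summed to 345 to 510.1 CPM in lung and 16.5 to 61.8 CPM in colon (14 higher in lung), and the 6 mesothelial markers to 73.7 to 121 CPM in lung and 0.90 to 1.45 CPM in colon (6 higher in lung). Of the defining markers, Pecam1 of endothelium stood at 30.2 against 6.11 CPM, Cdh5 at 36.6 against 2.35 CPM, and Msln of mesothelium at 22.3 against 0.0131 CPM. Without colon library 3 the log2 fold changes of Pecam1 and Cdh5 were 3.17 and 5.42 instead of 2.33 and 4.01. Without the 6 interstitial genes that are themselves on a marker list, 26 of the other 32 were higher in lung and 2 higher in colon. No basement membrane gene and no collagen processing gene is on these marker lists. Absence from these short lists does not show which cells made the RNA. The part of other cells in the matrix result was not tested.

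Proteases and matrix receptors also leaned to lung. Among proteases and inhibitors, 26 of 38 tested members were higher in lung and 10 higher in colon (23 and 5 by over 2-fold, median log2 fold change 2.48), and without lung library 1, 8 instead of 5 were over 2-fold higher in colon. Timp3 and Timp2, inhibitors of metalloproteinases, stood at 3227, 3809.7 and 3685 CPM in lung and 188, 283 and 189 CPM in colon and at 1301 against 24.2 CPM (4.02 ± 0.21 and 5.75 ± 0.17). Serpinb9, a granzyme inhibitor, stood at 544 against 5.34 CPM (6.67 ± 0.14). Serpinb1a, an inhibitor of neutrophil proteases, stood at 296 against 3.88 CPM in colon against lung (-6.26 ± 0.23). Among integrins and matrix receptors, 22 of 36 tested members were higher in lung and 7 higher in colon (20 and 5 by over 2-fold, median log2 fold change 1.61). Bcam, a receptor of laminin, stood at 2084, 2223 and 2348 CPM in lung and 6.94, 8.36 and 10.1 CPM in colon (8.03 ± 0.20). Dag1, which encodes dystroglycan, stood at 2345 against 285 CPM (3.04 ± 0.13). Itga3, a laminin-binding integrin chain, stood at 1364 against 170.5 CPM (3.0 ± 0.11). Itga6 and Itgb4, which together form the integrin of hemidesmosomes, were higher in colon, at 606, 593 and 482 CPM in colon and 80.2, 33.7 and 49.2 CPM in lung and at 336, 268 and 316 CPM in colon and 135, 41.6 and 61.5 CPM in lung (-3.37 ± 0.30 and -1.95 ± 0.38). Without lung library 1 the value of Itgb4 was -2.58. Hyaluronan genes split (17 tested, 5 higher in lung and 8 in colon), with Itih5, a hyaluronan-binding heavy chain, higher in colon (349 against 2.23 CPM, -7.29 ± 0.17) and Has1, a synthase, in lung (20.7 against 2.72 CPM, 2.94 ± 0.45).

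**Figure D4:**
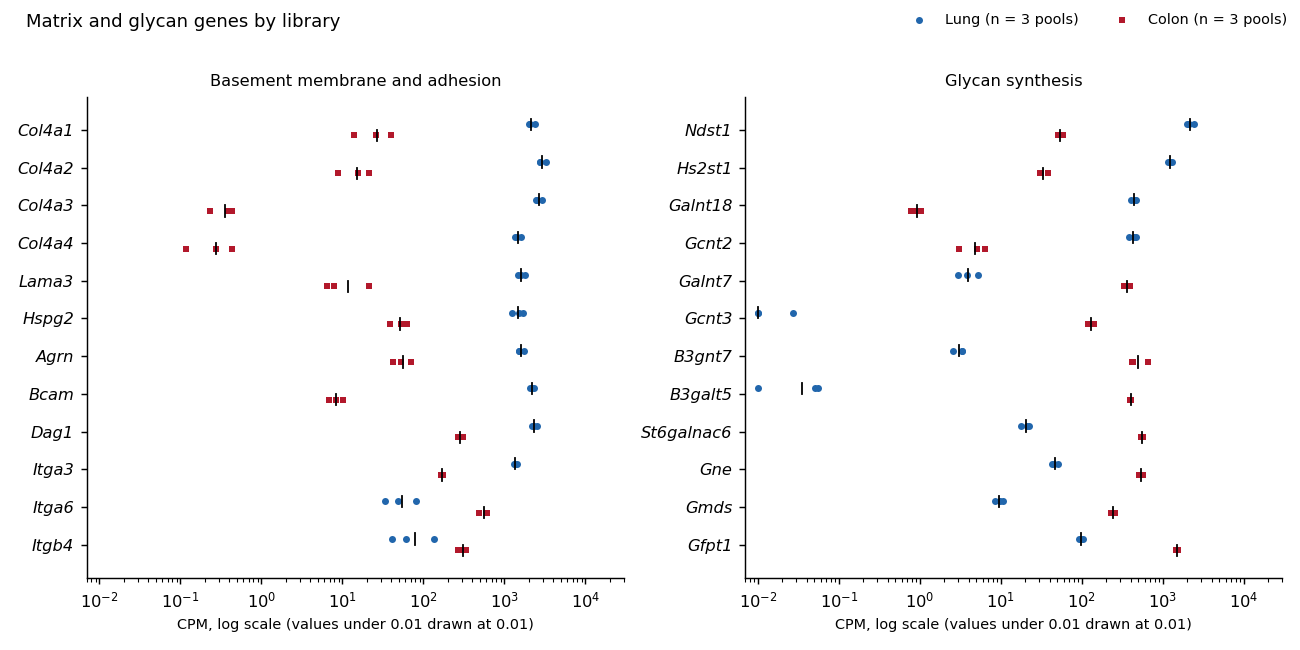
CPM on a log axis of 12 genes of basement membrane and adhesion (left) and 12 genes of glycan synthesis (right) in the 3 lung pools (blue circles) and the 3 colon pools (red squares), with a black line at each mean and values under 0.01 drawn at 0.01. All genes on the left except Itga6 and Itgb4 lie higher in lung. On the right the first 4 lie higher in lung and the other 8 higher in colon. The groups do not overlap in any, which also held for 81.0% of all genes tested.

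The signalling list of VEGF, PDGF, angiopoietin and semaphorin genes holds ligands and receptors that act on vessels, nerves and fibroblasts. Of this list, 25 of 41 tested members were higher in lung and 10 higher in colon (21 and 7 by over 2-fold, median log2 fold change 1.84). Vegfa, the growth factor of capillaries, stood at 4343, 5281 and 5063 CPM in lung and 88.8, 124 and 119 CPM in colon (5.47 ± 0.20, adjusted p = 6.5e-08). Sema3e and Sema3a, secreted semaphorins that steer vessels and axons, stood at 980.4 against 0.563 CPM and 514 against 0.414 CPM (10.73 ± 0.20 and 10.31 ± 0.24). Pdgfa, which acts on fibroblasts, stood at 615 against 111 CPM (2.47 ± 0.15). Their receptors Kdr and Pdgfra, which are markers of endothelium and fibroblasts, were also higher in lung, at lower levels (22.9 against 1.25 CPM and 79.5 against 5.74 CPM). Sema4g, a membrane semaphorin, was 1 of the 10 members higher in colon. It stood at 494, 443 and 559 CPM in colon and 1.3, 0.227 and 0.274 CPM in lung (-9.71 ± 0.47). Of the 36 members on no marker list, 20 were higher in lung and 10 higher in colon. Which cells made their RNA was not tested.

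Wnt genes, a list of ligands, receptors and targets, leaned to lung. The list gave 46 tested, 31 higher in lung and 11 in colon. Wnt7a gave no read in colon and 95.2, 133 and 129 CPM in lung, at least 3403-fold higher in lung. Wnt3a gave 1 read in colon and 97.8 CPM in lung, a ratio of 8363 times (95% exact counting interval 1501 to 330352), and Wnt10b and Wnt4 were higher in lung as well (80.3 against 0.124 CPM and 37.8 against 0.659 CPM). Wls, which all Wnt proteins need for secretion, stood at 505 against 155 CPM (1.71 ± 0.09). Lgr5 and Lgr4, receptors that amplify Wnt signals in crypt stem cells, stood at 30.6 against 0.296 CPM and 211 against 9.54 CPM in colon against lung (-6.69 ± 0.53 and -4.47 ± 0.23), and Axin2, a common Wnt target, was higher in colon (30.2, 38.2 and 38.3 CPM in colon and 4.79, 5.04 and 3.61 CPM in lung, -2.99 ± 0.17). Cell cycle genes moved with these receptors, as given below.

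Genes of the Hippo pathway leaned to lung. In this pathway the coactivators YAP and TAZ enter the nucleus when cells are stretched or sparse and act there with TEAD factors. Of the list, 17 of 25 tested members were higher in lung and 5 higher in colon (13 and 1 by over 2-fold, median log2 fold change 1.44), and without lung library 3, 3 instead of 5 were called higher in colon. Ccn1 and Ccn2, matricellular targets of the pathway, stood at 4791, 5976 and 5712 CPM in lung and 371, 516 and 433 CPM in colon and at 859.5, 1325 and 1008 CPM in lung and 9.81, 8.79 and 9.16 CPM in colon (3.64 ± 0.19 and 6.85 ± 0.21). Ankrd1, a further target, stood at 122 against 0.123 CPM (9.85 ± 0.25). Amotl2, a target that feeds back on the pathway, stood at 651, 922 and 775 CPM in lung and 41.5, 48.7 and 50.1 CPM in colon (4.06 ± 0.16). Tead1, a TEAD factor, stood at 867, 946 and 808 CPM in lung and 52.3, 58.3 and 54.6 CPM in colon (3.99 ± 0.12). Wwtr1, which encodes TAZ, stood at 210.4 against 14.4 CPM (3.87 ± 0.11), while Yap1 differed little (106 against 83.1 CPM, 0.35 ± 0.10). The call of Yap1 was lost without colon library 3 (adjusted p = 0.0526). The kinases Stk3 and Stk4 stood close to equal (0.16 ± 0.09 and 0.35 ± 0.09). The 18 genes of the response to tissue dissociation summed to 19614 to 21644 CPM in lung and 13394 to 17612 CPM in colon, and their part in this result was not tested.

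The promoters of Ccn1 and Amotl2 are shown because both genes were high in lung and hold the TEAD letters ACATTCC, in capitals, within 250 bases before the start. The sequences are from RefSeq on GRCm38.p6, 5′ to 3′ on the strand of the gene, chr3:145649986-145650235 on the minus strand for Ccn1 and chr9:102717554-102717803 on the plus strand for Amotl2, and end at the base before the annotated start.
Ccn1: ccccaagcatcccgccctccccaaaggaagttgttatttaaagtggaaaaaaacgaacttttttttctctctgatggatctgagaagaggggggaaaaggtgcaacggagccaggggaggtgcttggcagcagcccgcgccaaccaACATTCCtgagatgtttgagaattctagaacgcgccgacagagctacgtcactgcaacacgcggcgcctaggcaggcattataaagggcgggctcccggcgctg
Amotl2: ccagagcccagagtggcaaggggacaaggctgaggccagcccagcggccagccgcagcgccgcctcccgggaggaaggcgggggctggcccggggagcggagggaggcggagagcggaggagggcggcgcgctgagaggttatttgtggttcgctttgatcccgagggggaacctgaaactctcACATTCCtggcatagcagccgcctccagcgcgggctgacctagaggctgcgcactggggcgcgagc
The match lies 104 bases before the start in Ccn1 and 66 bases before it in Amotl2. Searched on both strands in windows of 300 bases (250 before the start and 50 from it on), these letters stood in 2.76% of the 11322 windows of protein-coding genes tested, in 4.21% of the 2615 windows of genes over 2-fold higher in lung and in 2.5% of the 2156 windows of genes over 2-fold higher in colon. A match of 7 letters is a description of the window and not a binding site.

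Other growth factor pathways held members of both epithelia. TGF-beta and BMP genes leaned to lung, since 27 of 44 tested members were higher in lung and 12 higher in colon (23 and 7 by over 2-fold, median log2 fold change 1.43). Tgfb2 stood at 195 against 1.53 CPM (7.02 ± 0.19). Bmp4 stood at 112 against 3.71 CPM (4.94 ± 0.23). Tgfbr2, the type II receptor, stood at 725 against 129 CPM (2.49 ± 0.12), whereas Bmp2 was higher in colon (55.7 against 6.32 CPM, -3.14 ± 0.20). Fgf1 stood at 885, 1027 and 999.9 CPM in lung and 41.7, 38.6 and 41.98 CPM in colon (4.58 ± 0.12) in a list with 27 tested, 14 higher in lung and 10 in colon. Of the EGF family (18 tested, 6 higher in lung and 10 in colon), Nrg1 and Egfr were higher in lung (6.49 ± 0.18 and 1.64 ± 0.08) and Areg, Erbb3 and the inhibitor Lrig1 in colon (-1.66 ± 0.23, -1.07 ± 0.16 and -2.42 ± 0.22). For Hedgehog (15 tested, 11 higher in lung and 3 in colon) the leading ligands differed: Ihh stood at 59.5 against 0.577 CPM in colon against lung (-6.68 ± 0.26). Shh stood at 12.8 against 0.958 CPM in lung against colon (3.75 ± 0.20). Notch2 and its target Hes1 were higher in lung (3.17 ± 0.09 and 2.4 ± 0.11), and Notch1 and Dll4 in colon (-1.31 ± 0.22 and -2.64 ± 0.25), in a list with 28 tested, 15 higher in lung and 9 in colon. Eph and ephrin genes counted 17 tested, 8 higher in lung and 6 in colon, with Ephb2 and Ephb4 higher in colon (-3.57 ± 0.49, or -4.3 without lung library 1, and -2.67 ± 0.10) and Efna1 in lung (1.77 ± 0.12).

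Receptors for hormones and cyclic nucleotides also divided. Of these, 27 of 47 tested members were higher in lung and 16 higher in colon (23 and 13 by over 2-fold, median log2 fold change 1.28). Npr2, a natriuretic peptide receptor, stood at 367 against 0.95 CPM (8.64 ± 0.27). Adrb1, a beta adrenergic receptor, stood at 25.9 against 0.11 CPM (7.75 ± 0.27). In colon, guanylin and its receptor occurred together, with Guca2a at 435, 215 and 563 CPM in colon and 0.135, 0.227 and 0.0547 CPM in lung (-11.45 ± 0.55). Gucy2c stood at 317 against 0.0447 CPM (-12.69 ± 0.22). Vipr1, a receptor of vasoactive intestinal peptide, stood at 231 against 0.597 CPM (-8.59 ± 0.19). Nuclear receptors leaned to colon, since 10 of 35 tested members were higher in lung and 19 higher in colon (6 and 14 by over 2-fold, median log2 fold change -0.61). Hnf4a, a master regulator of intestinal epithelium that is also on the colon marker list, stood at 563, 556 and 502 CPM in colon and 0.243, 0.0756 and 0.219 CPM in lung (-11.55 ± 0.23). Vdr, the vitamin D receptor, stood at 383, 272 and 354 CPM in colon and 17.2, 10.8 and 8.7 CPM in lung (-4.78 ± 0.27). Nr5a2 stood at 74.5 against 0.179 CPM (-8.69 ± 0.33). Nr3c1, the glucocorticoid receptor, was higher in lung (274 against 99.2 CPM, 1.47 ± 0.09), and Nr3c2, the mineralocorticoid receptor, in colon (131 against 16.7 CPM, -2.97 ± 0.13).

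In innate defence, inflammasome genes were higher in colon. Inflammasomes are sensors that activate caspase-1, which matures interleukin-18. The same list also holds gasdermins, which form pores, and whether caspase-1 acts on those named below was not tested. Of the list, 4 of 29 tested members were higher in lung and 23 higher in colon (3 and 22 by over 2-fold, median log2 fold change -6.74). Nlrp6, a sensor of the gut epithelium, stood at 137, 111 and 123 CPM in colon and 0, 0.101 and 0 CPM in lung (-11.62 ± 0.35). With 4 reads in lung, all in library 2, this value is imprecise, and it was -14.94 without that library. Casp1 stood at 123, 84.99 and 108 CPM in colon and 1.35, 0.353 and 1.26 CPM in lung (-6.74 ± 0.36, adjusted p = 4.7e-07). Pycard, the adaptor, stood at 124 against 5.88 CPM (-4.4 ± 0.23). Il18 stood at 70.3 against 2.58 CPM (-4.77 ± 0.28). Nlrc4, which joins the Naip sensors of flagellin and secretion needles, gave 3 reads over the lung libraries and 75.5 CPM in colon, a ratio of 2859.6 times (95% exact counting interval 978 to 13870.3), and Naip6 stood at 178 against 0.174 CPM (-9.95 ± 0.36). Gsdmc4, Gsdmc3 and Gsdmc2, gasdermins that lie side by side on chromosome 15, stood at 662, 171 and 336 CPM in colon and at 0.191, 0.108 and 0.00902 CPM in lung. The Naip and Gsdmc genes are close copies, so reads at a single place undercount them and the division among members is uncertain. The exceptions higher in lung included Il33, an alarmin (22.97 against 7.99 CPM, 1.51 ± 0.38), and Ripk2, a kinase downstream of the NOD receptors (23.3 against 9.64 CPM, 1.27 ± 0.16). Over 2-fold higher in lung were 3 members, and 1 without colon library 1 or without lung library 2.

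Toll-like receptors were low in both epithelia and differed member by member (21 tested, 6 higher in lung and 12 in colon). Tlr5, the surface sensor of flagellin, was higher in lung at 36.9, 42.9 and 42.5 CPM in lung and 7.06, 5.89 and 7.04 CPM in colon (2.62 ± 0.12), while the intracellular flagellin sensors named above were higher in colon. Tlr1 and Tlr4 were higher in colon (62.1 against 0.035 CPM and 35.7 against 5.77 CPM), and Tlr2 in lung (36.1 against 17.4 CPM, 1.05 ± 0.22). Tlr3 did not pass (31.4 against 30.5 CPM, 0.04 ± 0.09).

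Lists of antimicrobial products held members on both sides, and the genes named from them were picked by direction. Among collectins and lectins (23 tested, 12 higher in lung and 8 in colon), Sftpa1 and Sftpd, the lung collectins, stood at 1199 against 0.0848 CPM and 333 against 0.0359 CPM, and Chil1, a chitinase-like lectin, at 422, 241 and 179 CPM in lung and 0.0785, 0.058 and 0 CPM in colon (12.44 ± 0.58). The colon side held Dmbt1, given above, and Zg16, a lectin that aggregates bacteria (755, 2207 and 1411 CPM in colon and 0.0541, 0.0504 and 0.0547 CPM in lung, -14.65 ± 0.64). Reg4, a lectin of the same list, stood at 935 CPM in colon with 3 reads over the lung libraries, a ratio of 35470.5 times (95% exact counting interval 12137 to 172004). Among antimicrobial peptides and enzymes (21 tested, 11 higher in lung and 9 in colon), Lyz2 stood at 2467, 1468 and 1049 CPM in lung and 1.22, 0.783 and 2.12 CPM in colon (10.28 ± 0.51). Rnase4 stood at 1213 against 134 CPM (3.18 ± 0.12). Lyz2 encodes lysozyme of type II cells and also of macrophages. The macrophage, dendritic and granulocyte markers (13 tested, 9 higher in lung and 2 in colon) summed to 2922, 2033 and 1621 CPM in lung. In colon they summed to 10.2 to 16.1 CPM. Lyz2 made up most of the lung sums, and the other markers the rest. Ptprc, the common leukocyte antigen, stood at 2.48 against 0.929 CPM in lung against colon. Which cells made this RNA was not tested. Among oxidases (16 tested, 5 higher in lung and 7 in colon), Nox1 and Duox2, which make superoxide and peroxide at the gut surface, stood at 55.8 against 0.297 CPM and 82.7 against 0.0274 CPM in colon against lung, and Nox4 was higher in lung (21.5 against 0.15 CPM, 7.21 ± 0.39).

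Complement and cytokine receptors leaned to lung. Of complement and coagulation genes, 17 of 29 tested members were higher in lung and 6 higher in colon (15 and 4 by over 2-fold, median log2 fold change 2.11), and without colon library 1, 2 instead of 4 were over 2-fold higher in colon. C3, the central component, stood at 210.1, 412 and 365 CPM in lung and 10.2, 8.76 and 12.5 CPM in colon (4.97 ± 0.28). F2r, a thrombin receptor, stood at 534 against 4.67 CPM (6.84 ± 0.30). F3, tissue factor, was higher in colon (1143 against 461 CPM, -1.31 ± 0.15). Of cytokine receptors, 16 of 29 tested members were higher in lung and 7 higher in colon (12 and 5 by over 2-fold, median log2 fold change 0.87). Il18r1, the receptor chain for interleukin-18, stood at 486, 514 and 524 CPM in lung and 0.157, 0 and 0.118 CPM in colon (12.53 ± 0.31), while Il18 itself was higher in colon, as given above. Among chemokines and epithelial cytokines (30 tested, 13 higher in lung and 12 in colon), Cxcl15, the lung chemokine, stood at 755, 448 and 324 CPM in lung and 0.0392, 0.087 and 0.0393 CPM in colon (adjusted p = 1.2e-07), and Ccl28 and Ccl6 at 110.0 against 0.276 CPM and 522 against 7.49 CPM in colon against lung (-8.63 ± 0.19 and -6.12 ± 0.38). Pigr, which carries IgA across epithelium, stood at 5761, 4205 and 4461 CPM in colon and 6.76, 3.07 and 4.02 CPM in lung (-10.03 ± 0.38). It belongs to a list of immunoglobulin transport and secretion (21 tested, 9 higher in lung and 10 in colon) that also holds Scgb1a1, the club cell secretoglobin (4229, 2125 and 2750.1 CPM in lung and 0.314, 0.377 and 0.55 CPM in colon), and Fcgbp and Clca1 of colon mucus (3983 against 9.08 CPM and 1746 against 0.864 CPM).

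Genes of ion transport split by carrier. Of the list, 14 of 36 tested members were higher in lung and 21 higher in colon (10 and 19 by over 2-fold, median log2 fold change -1.46). Scnn1a, Scnn1b and Scnn1g encode the subunits of the epithelial sodium channel and were all higher in lung, with Scnn1a at 2135, 2415 and 2312 CPM in lung and 134, 106 and 124 CPM in colon (4.24 ± 0.15). Scnn1b stood at 494 against 6.27 CPM (6.29 ± 0.32). Scnn1g stood at 981, 1202 and 1094 CPM in lung and 0.392, 2.15 and 1.45 CPM in colon (9.62 ± 0.43). Colon held Slc26a3, which exchanges chloride for bicarbonate and is also a colon marker (215, 125 and 328 CPM in colon and 0.0811, 0.202 and 0.246 CPM in lung, -10.27 ± 0.52), Cftr, the chloride channel (301 against 5.09 CPM, -5.88 ± 0.29), and Slc12a2, which loads chloride for secretion (1002 against 194 CPM, -2.37 ± 0.13). Atp1b1, a beta subunit of the sodium pump, was higher in colon (1531 against 225 CPM, -2.77 ± 0.22), and Atp1b3, another beta subunit, in lung (114 against 66.7 CPM, 0.77 ± 0.08). Carriers of bile acids, phosphate, peptides and drugs leaned to colon, since 8 of 34 tested members were higher in lung and 23 higher in colon (6 and 20 by over 2-fold, median log2 fold change -2.29). Abcb1a, a drug efflux pump, stood at 456, 312 and 428 CPM in colon and 1.84, 3.0 and 2.63 CPM in lung (-7.32 ± 0.24), whereas Slco3a1, an organic anion carrier, stood at 655 against 1.61 CPM in lung against colon (8.72 ± 0.36). Genes of protein folding differed little as a list, in which 6 of 33 tested members were higher in lung and 13 higher in colon (1 and 7 by over 2-fold, median log2 fold change -0.30). Ern2 and Creb3l1, which act in secretory cells, were higher in colon (144 against 0.254 CPM and 349.7 against 9.39 CPM), and Hspa5, the main chaperone, did not pass (-0.62 ± 0.30). Without colon library 3 Hspa5 was called higher in colon (-0.86, adjusted p = 0.0245), as with DESeq2. Without colon library 2, 10 instead of 6 of this list were called higher in lung.

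Promoters of 3 colon genes are shown because all were near 0 in lung and hold letters of intestinal factors, HNF4 (CAAAGTCCA) in Cyp2c65 and Cyp2c68 and HNF1 (GTTAAT, any base, then ATTAA) in Slc26a3, in capitals. Their windows, read as above, are chr19:39060756-39061005 on the plus strand, chr19:39741102-39741351 on the minus strand and chr12:31437969-31438218 on the plus strand. The matches start 116, 77 and 84 bases before the start of the gene. The Cyp2c68 window also holds the letters searched for NKX2-1 (TCAAGTG), which are left in lower case.
Cyp2c65: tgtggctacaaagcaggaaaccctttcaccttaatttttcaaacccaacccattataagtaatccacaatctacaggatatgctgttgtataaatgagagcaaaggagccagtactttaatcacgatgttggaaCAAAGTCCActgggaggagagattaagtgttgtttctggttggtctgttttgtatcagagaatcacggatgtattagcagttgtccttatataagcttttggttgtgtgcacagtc
Cyp2c68: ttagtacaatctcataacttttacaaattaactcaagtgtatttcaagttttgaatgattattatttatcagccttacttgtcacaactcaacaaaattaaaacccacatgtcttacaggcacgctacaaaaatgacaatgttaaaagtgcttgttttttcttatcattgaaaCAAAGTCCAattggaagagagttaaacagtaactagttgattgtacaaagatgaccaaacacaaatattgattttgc
Slc26a3: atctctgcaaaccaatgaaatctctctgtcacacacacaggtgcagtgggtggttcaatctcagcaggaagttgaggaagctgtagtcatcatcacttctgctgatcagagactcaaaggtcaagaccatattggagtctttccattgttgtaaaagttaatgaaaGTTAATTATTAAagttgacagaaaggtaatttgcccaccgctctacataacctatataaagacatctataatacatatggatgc
Cyp2c65 stood at 66.4 CPM and Cyp2c68 at 61.7 CPM in colon with no read in lung, at least 2389.8-fold and at least 2304-fold higher, and the pair are close copies on chromosome 19. The HNF4 letters stood in 0.40% of all windows, in 0.27% of those higher in lung and 0.65% of those higher in colon by over 2-fold. These HNF4 shares rest on 45, 7 and 14 windows. The HNF1 letters stood in 0.05%, 0.08% and 0.14%, which are only 6, 2 and 3 windows. For NKX2-1 (TCAAGTG) the shares were 1.97%, 2.14% and 2.69%, for CDX (CCATAAA) 1.59%, 1.76% and 2.18%, and for FOXA (TGTTTAC) 2.63%, 2.64% and 3.01%. No searched motif contains another, and all were read on both strands.

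Markers of cell state and of other cell types also differed between the groups. All 20 cell cycle genes were higher in colon (19 by over 2-fold), with sums of 107 to 117 CPM in lung and 1030.2 to 1149 CPM in colon. Mki67, a marker of dividing cells, stood at 283, 303 and 265 CPM in colon and 3.03, 2.42 and 1.97 CPM in lung (-6.84 ± 0.17). Top2a stood at 142 against 2.13 CPM (-6.07 ± 0.25). Of 18 genes of the response to tissue dissociation, 8 were higher in lung and 5 in colon, with the sums given above. Ier3 and Fos led in lung (1439.7 against 42.9 CPM and 3125 against 1402 CPM), and Hspa1a and Hspa1b, heat shock genes with near-identical copies, in colon (611 against 65.9 CPM and 1028 against 58.7 CPM). Of 20 general epithelial markers, 14 were higher in colon and 3 in lung. Epcam, the adhesion molecule often used to sort epithelium, stood at 2139.9, 1844 and 1799.7 CPM in colon and 182, 153 and 154 CPM in lung (-3.56 ± 0.14). Krt7 stood at 1817 against 335 CPM in lung against colon, and Cdh1, E-cadherin, at 1256 against 1906 CPM (-0.6 ± 0.12). Lymphoid markers summed to 5.41 to 7.11 CPM in lung and 18.5 to 53.6 CPM in colon, and erythroid and platelet markers to 8.15 to 13.9 CPM in lung and 5.02 to 8.08 CPM in colon. Glia and neuron markers summed to 8.15 to 10.03 CPM in lung and 4.67 to 7.0 CPM in colon.

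**Figure D5:**
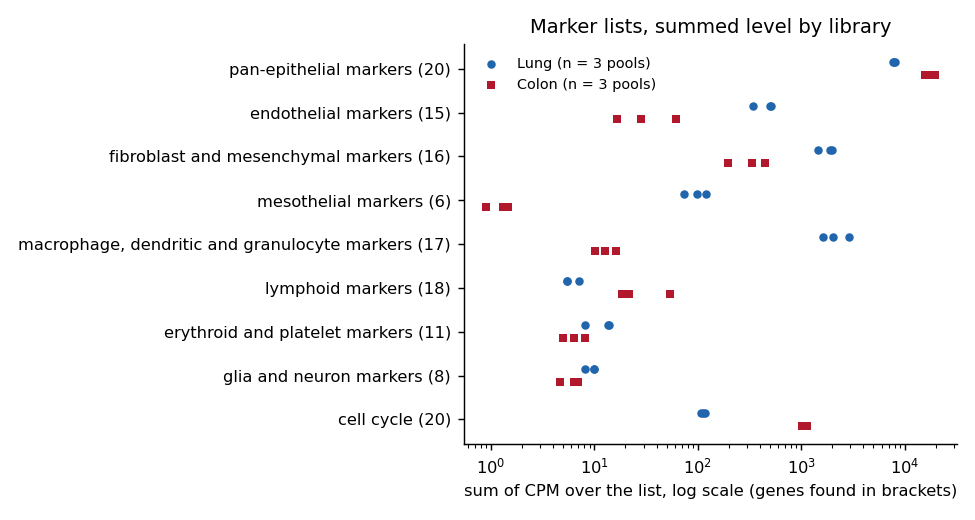
Sum of CPM over each marker list (horizontal log axis, genes found in brackets) in the 3 lung pools (blue circles) and the 3 colon pools (red squares). Fibroblast sums reach 1453 to 2001 CPM in lung and 198 to 450.5 in colon, endothelial sums lie lower, and cell cycle sums are higher in every colon pool than in any lung pool.

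The pools of a tissue were not alike for genes of single cell types. In lung, Sftpc was highest in library 1, as given above, Ager of type I cells was lowest there (11115, 13383 and 13693 CPM), and Bpifa1 of the upper airway varied widely (252, 10.2 and 141 CPM). In colon, Clca1 of goblet cells stood at 940.5, 2574 and 1723 CPM and Car1 of colonocytes at 2318, 470.4 and 1465 CPM, highest and lowest in opposite libraries. The coefficient of variation over the lung pools was 53.04% for Sftpc and 66.1% for Cyp2f2, against 9.47% for Col4a3 and 10.6% for Ndst1. Over the colon pools it was 65.2% for Car1 and 49.9% for Zg16, against 2.72% for Gfpt1 and 14.6% for Cs. Genes of the pathway lists stood on both sides.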

How the data were processed

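RNA of sorted epithelial cells was sequenced in 15 libraries, of which the 3 lung and 3 colon libraries were analysed here. The submitters' processing notes name bcl2fastq 2.20, STAR 2.5.1b, RSEM 1.2.28 and the build GRCm38, and no annotation release was found in the sources used. The deposited read counts are whole reads at a single place per gene, and the sense-strand column was used because the opposite column held far fewer reads (ratio 14.6 to 18.98). The deposited RSEM tables hold expected counts, which divide reads among genes and were rounded for 1 alternative. They also hold TPM, which the authors scaled by transcript length and which are given here only for Col4a1 and Lama3. CPM are not scaled by length, so CPM of different genes, and sums of CPM, compare levels between genes only roughly. The 24.2% to 36.1% of counted reads not assigned to a gene, for any reason, were left out of library sizes. Names and positions of the 50600 genes came from GENCODE M21 on GRCm38, in which 50376 identifiers matched.

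Reads were scaled with TMM, genes with low counts were removed with filterByExpr by group, and 17010 genes were tested with the quasi-likelihood F-test of edgeR 4.0.16 under R 4.3.3, with Benjamini-Hochberg adjustment over all of them. Genes were called at an adjusted p under 0.05, and glmTreat tested against a minimum of 2-fold. The biological coefficient of variation was 16.5%. A standard error is the log2 fold change divided by the square root of F. A fold against a tissue without reads takes that tissue at 3 reads over its libraries, and with 1 to 3 reads the ratio has an exact 95% interval for counting error only. The fit was run on simulated counts in which few genes changed, as many up as down, at the same dispersion for all genes. That setting cannot test the scaling where most genes differ, as here. P-values rest on 3 pools a tissue, and pools differed by more than sampling noise (chi-square per degree of freedom 20.9 to 60.2).

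The 69 gene lists and their 1816 gene symbols were chosen with earlier results of these data known, and no test of a list was made. The 4 symbols not found are Leprel1, Cyr61, Ctgf and Spry3. Cyr61 and Ctgf are older symbols of Ccn1 and Ccn2, which were found. The rule for named genes took the 4 label markers and, from each list, up to 3 members per direction with the largest difference in mean CPM, called, without overlap and at 10 CPM or more, and the highest member that did not pass. It also took the 10 largest fold changes per direction among protein-coding genes outside the epithelial marker lists with at least 10 reads on the lower side. The text leaves out some of these, and names others that were chosen after their values were seen. Alternatives changed the scaling, filter, test (DESeq2 1.42.0), counts, depth and samples. Promoter windows came from RefSeq on GRCm38.p6 and covered 11322 of 14511 protein-coding genes tested.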

Additional observations from a re-analysis of the deposited data

How the results depend on the processing

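The counts of genes higher in lung and in colon kept within 1.5 times under all 17 alternatives, from 5802 to 7398 and from 5402 to 7095, and over 2-fold from 3378 to 4485 and from 2878 to 3762. Leaving out each library in turn gave 6322 to 6715 and 6136 to 6428, and 3827 to 4064 and 3295 to 3553 over 2-fold. Lung and colon libraries were treated as unpaired, since the labels link them by a replicate number only. Deviations of same-numbered lung and colon libraries from their tissue means correlated at 0.005, -0.032 and -0.004. With 3 libraries a tissue these values cannot show whether the pools came from the same mice. With the replicate number as a block 6423 genes were higher in lung and 6175 in colon (3916 and 3307 over 2-fold). Without scaling beyond library size the median over all genes shifted by -0.14 (log2). Among 294 named genes, 4998 values under the alternatives held 15 lost and 7 gained calls and no reversed one, all at small fold changes except those of F3 and Ptprc, which were lost with all 15 libraries in 1 fit (adjusted p = 0.0611 and 0.088). Of 4692 list counts 102 moved by over 1.5 times, mostly counts of 5 or fewer. Depth limits genes with few reads on the lower side, whose fold changes are imprecise, and close copies, whose reads the counting leaves out. The cause of these changes was not tested.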
